A study of Mus musculus with 16 samples.

Results

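The genes of oxidative phosphorylation were described by complex in whole-kidney RNA of 5 mice. They were taken as the genes with 1 symbol on the platform whose symbol starts with Nduf (complex I), is Sdha, Sdhb, Sdhc or Sdhd (complex II), starts with Uqcr or is Cyc1 (complex III), starts with Cox4, Cox5, Cox6, Cox7 or Cox8 (complex IV), or starts with Atp5 (complex V). The rule used no measured value. It found 82 of 9669 named genes, and 78 of the 82 were measured on 3 or more of the 4 arrays of every mouse. Among all named genes, 8005 passed that filter. The 78 were 40 of 40 genes in complex I, 2 of 2 in complex II, 8 of 9 in complex III, 14 of 15 in complex IV and 14 of 16 in complex V. Uqcrc2, Cox7b2, Atp5d and Atp5k did not pass it.

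The animals W1, W2, W3, W4 and W5 were wild-type male littermates on a mixed C57BL/6 and 129Sv background, aged 88 ± 2 days, untreated as far as the labels say, and killed in the morning. RNA of the right kidney of each of W1 to W4 was hybridised against that of W5 on 4 two-colour arrays, which gave 16 arrays. In each mouse 2 arrays had that mouse in channel 1 and 2 arrays had W5 there, and array W2.3 is array 3 of W2. Arrays of 1 mouse repeat the hybridisation of 1 extract, so the p-values measure the spread between arrays of these extracts and not that between mice of a population.

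Values are log2 ratios to W5, with the sign turned on the 8 arrays that had W5 in channel 1. A value above 0 therefore lies on the side of arrays with the littermate in channel 1 as deposited. Which channel is the numerator is not given in the sources used here, so a value below 0 does not say that W5 was higher. Between 80.2% and 91.1% of the probes on an array had a value, as did 83 to 89 of the 91 probes of these genes. A ratio carries no level, so the kidney could not be checked by the level of its markers. Of the marker genes listed for it, 15 of 22 of the proximal tubule, 7 of 12 of the collecting duct and 4 of 8 of the glomerulus were measured.

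Oxidative phosphorylation passes electrons from NADH at complex I and from succinate at complex II through ubiquinone to complex III, and by cytochrome c to oxygen at complex IV. The proton gradient built by complexes I, III and IV drives ATP synthesis at complex V. Most subunits are encoded in the nucleus and a few in mitochondrial DNA, and 0 of the latter were tested here. In the kidney the proximal tubule and the thick ascending limb are rich in mitochondria, which supply the ATP for sodium transport. Some complex IV subunits have isoforms typical of heart and skeletal muscle beside a general isoform.

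Across the 5 kidneys most transcripts of these complexes differed little in size, and their typical difference was near that of all named genes. The 2 genes that passed the 5-kidney test were the muscle-type isoforms Cox7a1 and Cox8b of complex IV. That moderated F test of limma asks whether any of the 4 mouse coefficients differs from 0, with a gene-specific dye term, and a gene is called at a Benjamini-Hochberg adjusted p under 0.05 over all 15715 probes. It called 4.00% of all probes, and 2 of the 78 genes. At an unadjusted p under 0.05 it held 10 of the 78, against 18.2% of named genes.

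The range of a gene is the distance between its outermost kidneys, with W5 at 0. The median range was 0.23 in the 78 genes and 0.23 in all named genes, with a median residual SD of 0.16 and 0.18. By complex the median range was 0.23 in complex I, 0.086 in complex II, 0.29 in complex III, 0.22 in complex IV and 0.18 in complex V. The 95% intervals of all 10 differences between kidneys lay within 1.5-fold for 59 of the 78 genes, 75.6%, and for 65.8% of named genes. That count was 30 of 40 in complex I, 2 of 2 in complex II, 6 of 8 in complex III, 9 of 14 in complex IV and 12 of 14 in complex V. Leaving out the assembly factors, the acyl carrier Ndufab1, Ndufa4l2 and the muscle and testis isoforms left 64 genes. Of these, 0 were called, 5 had an unadjusted p under 0.05, and 53 lay within 1.5-fold.

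**Figure D1:**
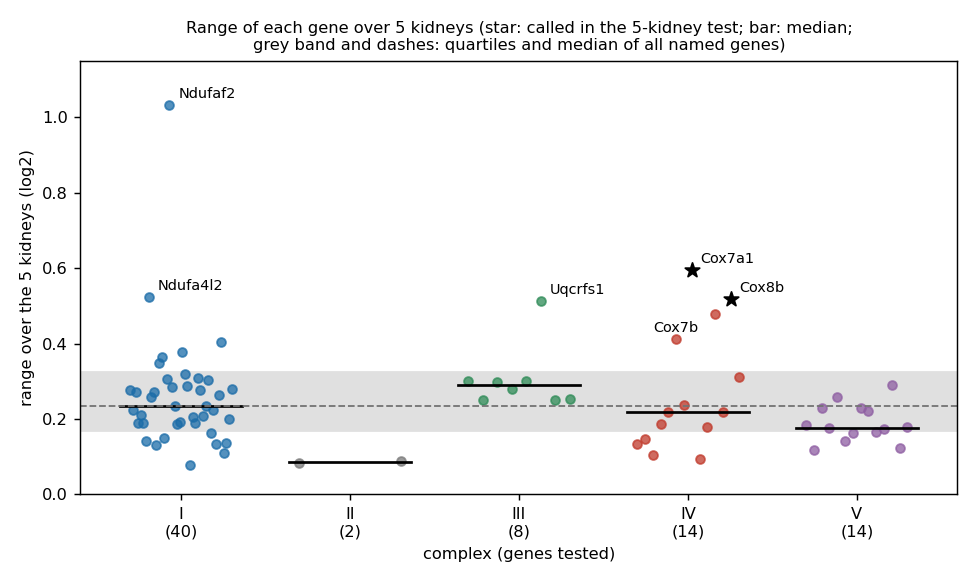
Range of each of the 78 genes over the 5 kidneys in log2 units, by complex, with the number of genes tested in parentheses. Stars mark Cox7a1 and Cox8b, called in the 5-kidney test, bars are medians by complex, and the dashed line and grey band are the median and quartiles of all named genes. Ndufaf2 stands highest at 1.03, and all genes of complex V lie at or below 0.29.

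Among W1 to W4 alone, where W5 cancels, the limma F test called 0 of the 78 genes, with 10 at an unadjusted p under 0.05. It called 0.700% of all probes, and 11.4% of named genes had an unadjusted p under 0.05. In the 10 pairs of kidneys, limma's test called Cox7a1 and Ndufa4l2 between W2 and W5, 2 of 78 against 2.34% of all probes. Between W4 and W5 it called Ndufaf2, 1 of 78 against 2.01%. In the other 8 pairs it called 0. At an unadjusted p under 0.05 these 8 held from 0 of the 78 genes (W1 and W5) to 12, 15.4% (W2 and W3), against 7.63% to 10.9% of named genes. The share of the genes was above that of named genes in the 3 pairs of W2 with another littermate, at 12.8%, 15.4% and 14.1% against 9.37%, 9.28% and 10.9% for W1, W3 and W4. It was below it in the other 5 pairs, at 0% to 6.41% against 7.63% to 10.5%. For the pair W2 and W5 it was 24.4% against 15.5%, and for W4 and W5 10.3% against 16.1%. With W5 set against the means of its 4 littermates, 1 gene passed, Cox8b, against 0.286% of all probes, and 6 had an unadjusted p under 0.05, against 12.9% of named genes.

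Complex I oxidises NADH with a set of core subunits that carry flavin and iron-sulphur clusters, surrounded by accessory subunits. Of its 40 genes, 0 passed the 5-kidney test of limma, with 6 at an unadjusted p under 0.05, against 18.2% of named genes. Those with the largest ranges were not structural subunits. Ndufaf2, an assembly factor that helps late intermediates of the complex mature, differed in W4. Ndufa4l2, a paralogue of Ndufa4 known as a target of hypoxia-inducible factor, differed in W2.

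Ndufaf2 was 0.76, 0.23, 0.58 and 1.88 on the 4 arrays of W4. It was -0.06, -0.42, -0.19 and 0.22 on those of W1, and -0.49, -0.04, 0.19 and -0.10 on those of W2. On the 3 arrays of W3 with a value it was 0.19, -0.49 and -0.10. All arrays of W4 lay above 0 and above every array of the other mice, narrowly so for W4.2, with W4.4 far above the rest. The fitted value of W4 was 0.86 ± 0.19 (SE of the fit, 4 arrays), and those of W1, W2 and W3 lay between -0.17 and -0.11. Here and below, the SE of a fitted value uses a moderated spread pooled over the arrays of all mice. It is not the spread of the arrays of 1 mouse, and the SD over the 4 arrays of W4 was 0.72. The pair W4 and W5 passed at an adjusted p of 0.022, while the 5-kidney test missed the threshold at 0.085. Without 1 array at a time that pair was lost for 3 of 16 arrays, W4.1, W4.3 and W4.4, at adjusted p of 0.0870, 0.0563 and 0.126. Without W4.4 the range fell from 1.03 to 0.67.

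Ndufa4l2 was -0.46, -0.40, -0.27 and -0.43 on the arrays of W2. It was 0.11, 0.24, 0.40 and -0.28 on those of W1, 0.34, -0.01, 0.21 and -0.0016 on those of W3, and 0.54, -0.31, 0.03 and -0.02 on those of W4. W2 was the only mouse with all 4 arrays on one side of 0, and its arrays overlapped those of W1 and W4. The fitted value of W2 was -0.39 ± 0.10 (SE of the fit, 4 arrays), against 0.06 to 0.14 in the other 3 mice. The pair W2 and W5 passed narrowly, at an adjusted p of 0.0475, and 4 of 16 settings without 1 array kept the call, over a span of 0.0274 to 0.243. The setting without W2.1 gave the upper end. The 5-kidney test gave 0.126.

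The other 6 assembly factors measured did not pass. Ndufaf8, which stabilises Ndufaf5, came nearest in the 5-kidney test, with fitted values of 0.07, -0.19, -0.17 and -0.31 in W1 to W4 and an adjusted p of 0.076. Of 33 alternative settings of the fit, 2 called Ndufaf8 in that test, with the lowest adjusted p at 0.047. Ndufaf1, Ndufaf3, Ndufaf5, Ndufaf6 and Ndufaf7 had ranges between 0.19 and 0.31. As a group the 7 assembly factors had a median range of 0.28, against 0.20 in the 5 core subunits and 0.25 in the 26 accessory subunits.

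Among the core subunits Ndufs7, which holds the iron-sulphur cluster next to the quinone site, had the largest range. It was 0.03, -0.08 and -0.33 on the 3 arrays of W1 with a value, 0.01, 0.51 and 0.06 on the 3 of W2, 0.21, -0.08, 0.17 and 0.05 on those of W3, and -0.09, -0.10, -0.16 and -0.28 on those of W4. The fitted values were -0.17, 0.23, 0.09 and -0.16, and the adjusted p in the 5-kidney test was 0.165. All arrays of W4 lay below 0, and those of W1 and W2 overlapped. The accessory subunits Ndufa9 and Ndufa8 had their lowest values, as coded, in W2, at -0.24 and -0.23, and had unadjusted p of 0.028 and 0.020. Neither passed after adjustment, at 0.217 and 0.181. The smallest range was that of the accessory subunit Ndufb2, at 0.079, with fitted values from -0.06 to 0.02.

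Complex II, succinate dehydrogenase, links the tricarboxylic acid cycle to the chain and is wholly encoded in the nucleus. Both genes tested were among the least variable of the set. Sdhb, the iron-sulphur subunit, had a range of 0.083, and Sdhd, a membrane anchor, one of 0.089. Their fitted values lay between 0.0067 and 0.09 in all 4 mice, on one side of 0. Sdhb was 0.09, 0.04, -0.23 and 0.23 on the arrays of W1, and spanned -0.14 to 0.22 in W2, -0.09 to 0.24 in W3 and -0.31 to 0.27 in W4. The arrays of every mouse overlapped those of every other and straddled 0. The interval of the widest pair reached 1.23-fold for Sdhb and 1.25-fold for Sdhd. Sdhb was also the gene of complex II with the larger dye term, -0.13 ± 0.04 (SE), called at an adjusted p of 0.032.

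Complex III passes electrons from ubiquinol to cytochrome c through cytochrome b, the Rieske protein and cytochrome c1. Most of its 8 genes lay on the same side of W5 in W2, and all did in W3, without any passing a test. In W2, 7 of 8 had a fitted value below 0, with Uqcrc1 the exception at 0.10. In W3, 8 of 8 lay above 0. The fitted medians of the complex in W1 to W4 were 0.05, -0.15, 0.08 and 0.0095, against 0.0096 in W2 and 0.0067 in W3 over all named genes.

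The median of complex III on single arrays was -0.05, -0.23, -0.02 and -0.23 in W2 and 0.20, 0.0015, 0.08 and 0.11 in W3. It was 0.13, 0.05, 0.04 and -0.16 in W1 and 0.20, -0.17, -0.09 and 0.06 in W4. All arrays of W2 lay below all arrays of W3, while those of W1 and W4, repeat hybridisations of 1 extract each, crossed 0 and overlapped those of both. Without 1 array of the mouse the fitted median of complex III ran from -0.16 to -0.13 in W2 and from 0.05 to 0.12 in W3.

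Uqcrfs1, the Rieske iron-sulphur protein, had the largest range in the complex, 0.51. It was -0.15, -0.0090, -1.21 and -0.24 on the arrays of W2, so array W2.3 stood far below the other 3. The fitted value in W2 was -0.40 ± 0.13 (SE of the fit), with an SD of 0.55 over its 4 arrays. The adjusted p in the 5-kidney test was 0.292. Cyc1, cytochrome c1, ranged from -0.19 in W4 to 0.11 in W3, and the core protein Uqcrc1 from -0.20 in W4 to 0.10 in W2. Uqcrq, a small accessory subunit, had an unadjusted p of 0.042 and an adjusted p of 0.261, with -0.12, -0.18, 0.07 and 0.01 in W1 to W4. Its second probe gave 0.04, -0.14, 0.17 and -0.03, with W2 lowest and W3 highest as coded, like the first probe. Uqcrb, which binds near the quinone site, had the largest dye term of the complex, 0.23 ± 0.06 (SE), and Uqcr10 the smallest range, 0.25.

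**Figure D2:**
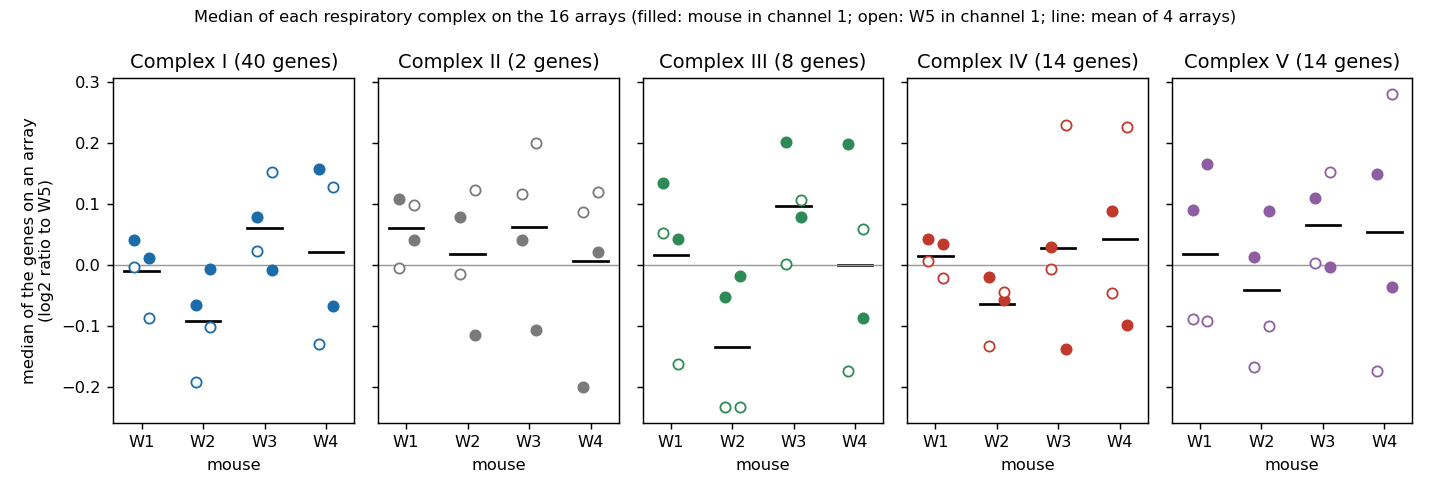
Median log2 ratio to W5 over the genes of a complex on each of the 16 arrays, by complex and mouse. Filled points had the mouse in channel 1, open points had W5 there, and lines are means of 4 arrays. In W2 all 4 arrays lie below 0 for complexes I, III and IV, while arrays of W4 spread from -0.17 to 0.28 in complex V.

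Across all 78 genes the fitted value lay above 0 for 42, 19, 63 and 50 genes in W1 to W4. Their medians were 0.01, -0.08, 0.06 and 0.03, and those of all named genes lay between -0.0087 and 0.0096. The 4 arrays of W2 had medians of -0.04, -0.17, -0.01 and -0.11, so all lay below 0. In W4 the mean of the array medians was 0.02 ± 0.14 (SD, n = 4), from -0.13 to 0.16. After the fit, the median residual of these genes on an array ran from -0.13 to 0.16, and that of all named genes from -0.018 to 0.016. These joint shifts between arrays of the same extract spanned more than the medians of the mice did. Each median of a mouse was fitted over 4 arrays, so it would spread less than single arrays do in any case.

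Marker lists of other cells were summarised in the same way. Endothelial and stromal markers had medians of 0.11, 0.22, 0.04 and 0.20 in W1 to W4, and 5 of 13 were called in the 5-kidney test, where 4.00% of all probes were. Glomerular markers had -0.03, 0.15, -0.10 and 0.07, with 3 of 4 called, and proximal tubule markers 0.07, 0.07, -0.02 and -0.07, with 7 of 15 called. On single arrays of W2 the medians of these lists ran from 0.18 to 0.34, from 0.07 to 0.32, and from -0.13 to 0.18. The endothelial and stromal medians of W4 ran from 0.01 to 0.37 and overlapped those of W2, while the glomerular medians of the other mice ran from -0.21 to 0.12. Of 9 loop of Henle markers 2 were tested, with medians of -0.0043, -0.13, 0.03 and -0.26 and 0 called. On single arrays they ran from -0.22 to -0.09 in W2 and from -0.36 to -0.17 in W4. Collecting duct markers had -0.05, 0.04, 0.02 and -0.17, with 3 of 7 called. Distal tubule markers had -0.08, -0.03, -0.12 and -0.13, with 1 of 4 called. For leukocytes, red blood cells and adrenal, 0 of 6, 0 of 1 and 0 of 4 were called. The part of these cells in the values of the complexes was not tested. In RNA of a whole kidney, fewer cells of a type and less RNA per cell cannot be told apart.

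**Figure D3:**
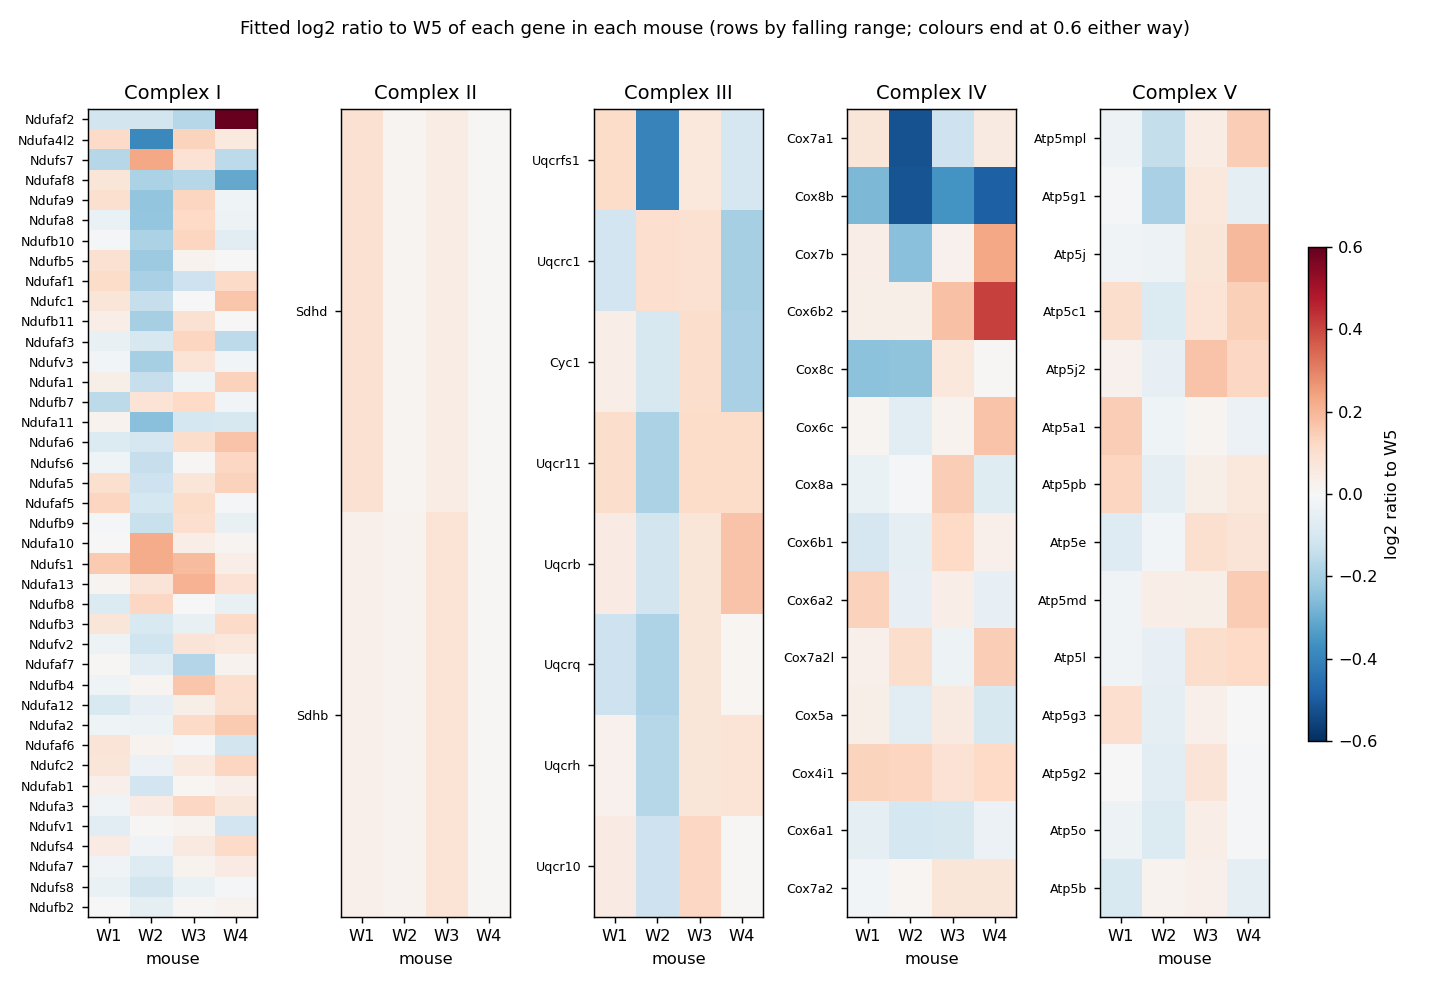
Fitted log2 ratio to W5 of each gene in W1 to W4, in 5 panels by complex, with genes in order of falling range and the colour scale ending at 0.6 either way. The column of W2 is mostly below 0 in complexes I and III, the column of W3 is above 0 for all 14 genes of complex V, and the deepest colours belong to Ndufaf2, Ndufa4l2, Uqcrfs1, Cox7a1, Cox8b and Cox6b2.

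Complex IV, cytochrome c oxidase, reduces oxygen to water, and its nuclear subunits tune the mitochondrially encoded core. Here the muscle-type isoforms Cox7a1 and Cox8b were the genes that passed, while their general partners Cox7a2 and Cox8a did not. They were 2 of the 78 genes of the set, in a test that called 4.00% of all probes. A difference between muscle and general isoforms was not tested. Cox7a1 had its lowest value, as coded, in W2. Cox8b lay on one side of W5 in all 4 littermates. The third muscle isoform measured, Cox6a2, did not pass.

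The 250 bases before the start sites of Cox7a1 and Cox8b are printed beside those of their general partners Cox7a2 and Cox8a, a choice made after the calls were known. They are from the RefSeq promoter table of GRCm38.p6, read 5′ to 3′ on the strand of the gene. Cox7a1 is at chr7:30183921-30184170 on the plus strand, and Cox7a2 at chr9:79759854-79760103, Cox8b at chr7:140900447-140900696 and Cox8a at chr19:7217617-7217866 on the minus strand. The NRF1 motif (GCGCA, any base, GCGC), the GABP motif CCGGAAG and the E-box CAGCTG were searched on both strands, and capitals mark the match found, an E-box.
Cox7a1: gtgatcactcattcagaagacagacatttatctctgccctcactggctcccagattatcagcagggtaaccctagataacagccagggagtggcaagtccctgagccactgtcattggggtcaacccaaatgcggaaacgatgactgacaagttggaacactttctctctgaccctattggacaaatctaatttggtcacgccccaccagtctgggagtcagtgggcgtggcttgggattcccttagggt
Cox7a2: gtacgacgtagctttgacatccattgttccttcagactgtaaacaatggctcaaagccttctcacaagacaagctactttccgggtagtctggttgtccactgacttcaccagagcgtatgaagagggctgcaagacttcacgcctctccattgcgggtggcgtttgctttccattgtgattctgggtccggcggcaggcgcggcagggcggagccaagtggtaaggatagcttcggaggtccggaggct
Cox8b: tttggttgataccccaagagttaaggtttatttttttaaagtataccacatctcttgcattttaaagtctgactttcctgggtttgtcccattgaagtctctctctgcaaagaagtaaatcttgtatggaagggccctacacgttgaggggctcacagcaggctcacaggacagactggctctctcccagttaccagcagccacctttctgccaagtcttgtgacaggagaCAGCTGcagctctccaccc
Cox8a: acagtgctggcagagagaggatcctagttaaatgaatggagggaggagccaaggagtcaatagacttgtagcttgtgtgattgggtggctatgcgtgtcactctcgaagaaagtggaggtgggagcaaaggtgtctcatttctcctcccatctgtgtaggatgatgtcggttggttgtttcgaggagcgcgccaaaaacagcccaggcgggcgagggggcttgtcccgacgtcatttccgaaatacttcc

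The Cox8b window held 1 CpG, the lowest count of the 64 genes of the set with a promoter in the table, and Cox7a1 held 4. Cox7a2 held 14 and Cox8a 11, against a median of 15 in the 64 genes and 6 over 27025 genes. Cox8b held an E-box at -19 from the start site. None of these motifs was in the windows of Cox7a1, Cox7a2 and Cox8a.

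NRF1 and GABP are activators known for their action on nuclear genes of the respiratory chain. In the set, 9 of 64 promoters held the NRF1 motif, 14.1%, against 4.23% of all genes, and 11 held the GABP motif, 17.2%, against 7.83%. The E-box was in 5, 7.81%, against 14.7%. The MEF2 motif was in 0 of 64, against 3.42% of all genes. The YY1 motif was in 0, against 0.248%, and the ERRa motif in 1, against 0.422%. Sdhd and Cox6a1 held both the NRF1 and the GABP motif. Both motifs are rich in C and G, and the median GC content of the windows was 57.6% in the set and 52.8% over all genes. The median range was 0.23 in the 9 genes with the NRF1 motif and 0.22 in the 55 without it. These matches describe letters in a window and do not show binding.

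Cox7a1 was -0.58, -0.62, -0.18 and -0.71 on the arrays of W2. It was 0.14, 0.08, -0.01 and 0.07 on those of W1, -0.11, -0.29, -0.18 and 0.09 on those of W3, and 0.07, -0.06, 0.01 and 0.20 on those of W4. Arrays W2.1, W2.2 and W2.4 lay below every array of the other mice, and W2.3 overlapped those of W3. The fitted values in W1 to W4 were 0.07, -0.52, -0.12 and 0.06, each ± 0.09 (SE of the fit, 4 arrays per mouse), a range of 1.51-fold. The adjusted p was 0.011 in the 5-kidney test and 0.0024 for the pair W2 and W5. The test among W1 to W4 missed the threshold at 0.0516. Without W2.1, W2.2 or W2.4 the 5-kidney test gave 0.0653, 0.0658 and 0.0712, so those 3 arrays carry the call, and the pair W2 and W5 kept its call in each of the 16 settings without 1 array.

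Cox7a2, the general partner, had fitted values between -0.02 and 0.07 and a range of 0.093, the smallest of complex IV. Its interval reached 1.37-fold. The values on its arrays spread from -0.24 to 0.12 in W1, from -0.27 to 0.40 on 3 arrays of W2 and from -0.18 to 0.52 in W4, and overlapped in all mice. Cox7a2l, a relative of both that joins complexes III and IV, ranged from -0.03 to 0.15.

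Cox8b was -0.39, 0.28, -0.29 and -0.67 on the arrays of W1 and -0.29, -0.58, 0.04 and -1.24 on those of W2. It was -0.40, -0.29, -0.24 and -0.50 on those of W3 and -0.21, -1.02, -0.38 and -0.33 on those of W4. Array values lay below 0 on 14 of 16 arrays, with W1.2 and W2.3 above 0, and the mice overlapped each other throughout. The fitted values were -0.27, -0.52, -0.36 and -0.49, each ± 0.16 (SE of the fit, 4 arrays per mouse). Their mean was -0.41 ± 0.12 (SD, n = 4 mice). The adjusted p was 0.040 in the 5-kidney test and 0.023 for W5 against its littermates, while no pair of kidneys passed.

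The Cox8b calls were near the threshold. The 5-kidney call was lost in 13 of 16 settings without 1 array, with adjusted p up to 0.082, and held without W1.2, W2.3 or W4.4. The W5 call was lost without W1.4, W4.2 or W4.4, at 0.122, 0.0682 and 0.050. It was also lost when the spread of W5 itself was added, at 1.00. Cox8a, the general partner, had fitted values of -0.04, -0.0062, 0.15 and -0.07 and an adjusted p of 0.791, with arrays of every mouse on both sides of 0.

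**Figure D4:**
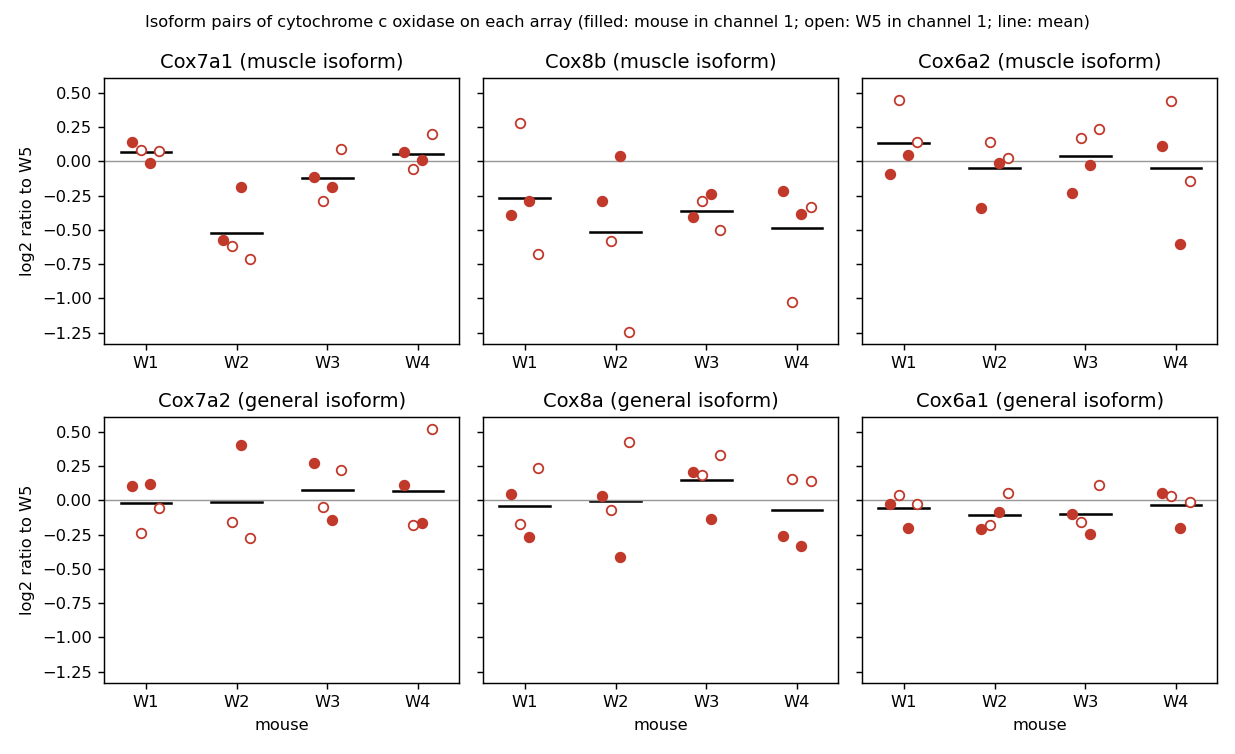
Log2 ratio to W5 on each array for 3 pairs of complex IV isoforms, the muscle isoform above and the general isoform below. Filled points had the mouse in channel 1, open points had W5 there, and lines are means. As coded, Cox7a1 lies low in W2, and Cox8b lies below 0 on 14 of 16 arrays, while Cox7a2, Cox8a, Cox6a2 and Cox6a1 cross 0 in most mice.

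Cox8b is also a gene of brown and beige fat, and markers of fat stood on the same side of W5. Of the 12 adipose markers listed, 7 were tested. In the 5-kidney test 5 were called, Fabp4, Cidec, Car3, Plin4 and Lpl, against 4.00% of all probes. With W5 set against its littermates, 2 of the 7 were called, against 0.286% of all probes. All 7 lay below 0 in W1, W2 and W4, and 6 of 7 did in W3. Their medians were -0.08, -0.36, -0.33 and -0.31 in W1 to W4. On single arrays the median ran from -0.28 to -0.03 in W1, -0.41 to -0.18 in W2, -0.57 to -0.16 in W3 and -0.64 to -0.25 in W4. Adipoq, Plin1, Cfd, Ucp1 and Lep were not analysed here.

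Cidea, a lipid-droplet protein of brown fat, had -0.20, -0.06, -0.33 and -0.88 in W1 to W4 and did not pass, at an adjusted p of 0.112. Fabp4, the adipocyte fatty acid binding protein, had -0.47, -0.67, -0.64 and -0.31. Of the 13 muscle markers, 7 were tested and 0 were called in the 5-kidney test. At an unadjusted p under 0.05 there were 2, against 18.2% of named genes. Their medians were 0.02, -0.12, 0.04 and 0.08. The part of fat and of muscle in the results of Cox8b and Cox7a1 was not tested.

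**Figure D5:**
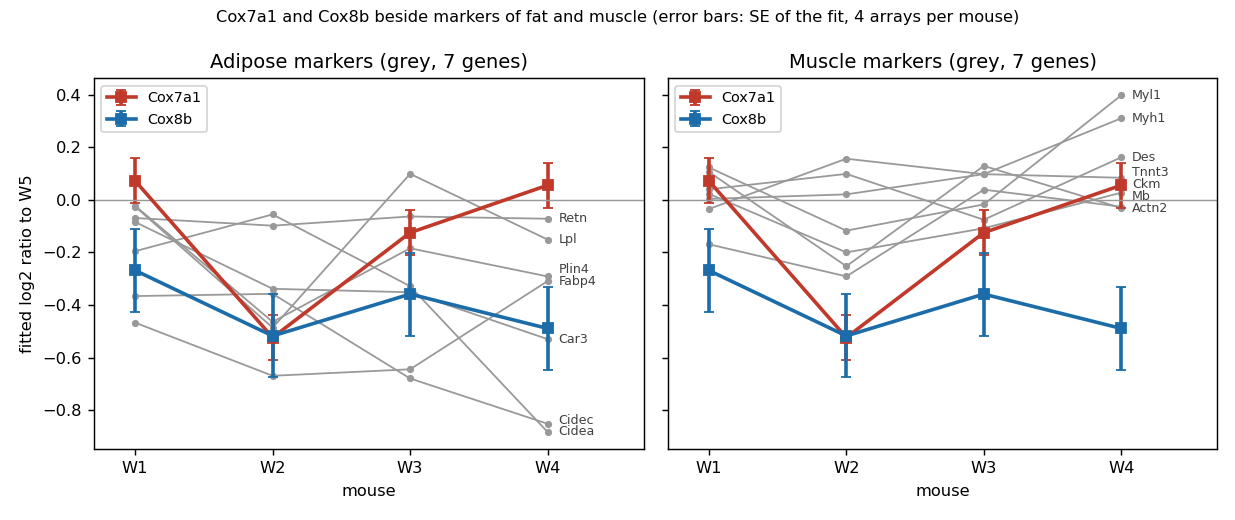
Fitted log2 ratio to W5 of Cox7a1 and Cox8b (coloured) in W1 to W4, beside 7 adipose markers on the left and 7 muscle markers on the right (grey). Error bars are SE of the fit, with 4 arrays per mouse. Lines only join the values of a gene. The adipose markers lie below 0 except Lpl in W3, as does Cox8b, while muscle markers lie on both sides.

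The other complex IV genes did not pass. Cox6a2 had fitted values of 0.14, -0.05, 0.04 and -0.05, and its general partner Cox6a1 -0.05, -0.11, -0.10 and -0.03. Cox7b, an accessory subunit, had the third largest range of the complex, 0.48, with -0.25 in W2 and 0.23 in W4 and an adjusted p of 0.258. The testis isoforms Cox6b2 and Cox8c had ranges of 0.41 and 0.31, and the general isoform Cox6b1 0.22. Cox8c also had the largest dye term of the complex, -0.24 ± 0.06 (SE).

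Cox4i1, the general isoform of subunit 4, lay above 0 in all 4 mice at 0.13, 0.13, 0.09 and 0.12, and was not called in the W5 test, at an adjusted p of 0.325. Its second probe gave -0.03, 0.03, 0.12 and 0.02. Cox5a, a subunit on the matrix side, ranged over 0.15.

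Complex V, the ATP synthase, turns the proton gradient into ATP with a soluble catalytic head, a membrane ring and stalks that join them. Its median range of 0.18 was the smallest of the 4 complexes with more than 2 genes. No gene of it was called, and 0 of 14 had an unadjusted p under 0.05 in the 5-kidney test, against 18.2% of named genes. All 14 lay above 0 in W3, with a median of 0.06, and 12 of 14 lay below 0 in W2, with a median of -0.05. Of 8005 named genes, 4206 lay above 0 in W3 and 4243 in W2. The 14 genes share the same arrays and are not independent. On single arrays their median was 0.11, 0.0037, -0.0037 and 0.15 in W3, and 0.01, -0.17, 0.09 and -0.10 in W2. Without 1 array of the mouse the median ran from 0.01 to 0.11 in W3 and from -0.08 to -0.02 in W2. The largest range was 0.29.

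In the catalytic head, Atp5b, the subunit that forms ATP, had the smallest range of the complex, 0.118. It was 0.0043, -0.33, 0.11 and -0.15 on the arrays of W1, -0.0053, 0.0091, 0.11 and -0.04 on those of W2, 0.07, 0.03, 0.14 and -0.12 on those of W3 and 0.12, -0.25, 0.0084 and -0.09 on those of W4. The mice overlapped throughout and the widest interval reached 1.25-fold. Atp5a1, its partner subunit, ranged over 0.18, with a second probe at 0.32, and Atp5e, the smallest subunit of the head, had the largest dye term of the complex, 0.18.

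In the ring, Atp5g1 lay at -0.19 in W2 and had a range of 0.26, and Atp5g2 and Atp5g3, which encode the same mature protein, had 0.14 and 0.16. In the stalks, Atp5o ranged over 0.12 by one probe and 0.14 by the other, and Atp5j over 0.23. Atp5mpl, a small membrane subunit, had the largest range, 0.29. Its second probe, with values on 13 arrays and a residual SD of 0.69, gave 0.69, with 0.52 in W4, and an adjusted p of 0.669. In complex I, the second probe of Ndufs4 gave a range of 0.32 against 0.13, with -0.25 in W1 where the first had 0.05.

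The dye term, which measures the difference between the channels for a gene, was called for 8 of the 78 genes, 10.3%, against 12.5% of all probes. These were Ndufaf1, Ndufv2 and Ndufb4 in complex I, Sdhb, Uqcrb, Uqcrq, Cox8c and Atp5o. Cox7a1, Cox8b, Ndufaf2 and Ndufa4l2 were not among them.

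The pathway around the complexes gave 1 call in the lists of related genes. Among regulators of mitochondrial number, 1 of 12 was called in the 5-kidney test, against 4.00% of all probes. This was Ppargc1a, the coactivator of mitochondrial gene programmes. It had 0.02, -0.12, -0.57 and -0.25 in W1 to W4, each ± 0.09 (SE of the fit, 4 arrays per mouse), with an adjusted p of 0.0031. In W3, where Ppargc1a lay lowest as coded, 63 of the 78 genes lay above 0, against 4206 of 8005 named genes. A link between Ppargc1a and the genes of the set was not tested. Pprc1, a relative of Ppargc1a, had -0.39 in W2 and an adjusted p of 0.086.

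None of the other pathway lists held a call in the 5-kidney test of limma. The count was 0 of 11 electron carriers and quinone enzymes, 0 of 24 assembly factors outside the rule, 0 of 17 tricarboxylic acid cycle genes, 0 of 9 carriers and channels of the membranes, and 0 of 6 antioxidants. In that test 4.00% of all probes were called, so few or 0 calls in lists of this size say little about a pathway. At an unadjusted p under 0.05 the lists held 2, 5, 1, 0 and 1 genes, against 18.2% of named genes. The largest ranges in them were 0.47 for Etfb, 0.58 for Ecsit, 0.35 for Pdhx, 0.40 for Slc25a10 and 0.31 for Gpx1. Median ranges ran from 0.18 in the antioxidants to 0.29 in the assembly factors.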

How the data were processed

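Each deposited value is a log2 ratio between the channels of 1 array. Per the labels, the authors scanned slides with GenePix, subtracted background from mean intensities and scaled them to a median ratio of 1. The dye of each channel, the numerator and the filter that left cells empty were not given in the sources used here. Base 2 was read from the values: 1.66% to 5.05% per array lay at log2 of small whole-number ratios, against at most 0.0634% for natural logs and 0.521% for log10.

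Ratios were fitted with limma (3.58.1, in R 4.3.3) using lmFit and eBayes on the 15715 probes with values on at least 3 of 4 arrays of each mouse, after turning the sign of arrays with W5 in channel 1. Before turning, arrays of opposite orientation of a mouse, centred within orientation, had a correlation across probes of -0.156, -0.0759, -0.0658 and -0.107 in W1 to W4, where genes are not independent replicates. For W5 against littermates, the 4 mouse means were tested against 0, which leaves out the spread of W5. All tests were two-sided, with Benjamini-Hochberg adjustment over all probes. The scripts were tested on simulated data.

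Of 20205 probes, 11723 had 1 symbol, 806 several and 7676 none, and 8 probes listed with several genes that include one of the set were not used. All 91 probes of the set matched the gene table of GRCm38.p6 and 0 symbols changed. The probe measured on most arrays stood for a gene. Named genes were those called in any test, the 3 largest and the smallest range per complex, those with an unadjusted p under 0.05 in the 5-kidney test, those with several probes, tissue isoforms, the largest dye term per complex, and genes that are not subunits. The genes, lists and motifs were chosen with earlier results of these data known. Alternatives were the dye term, sign, weights, filter, scale, centring, prior, probe rule, a replicate block, and leaving out arrays or mice.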

Additional observations from a re-analysis of the deposited data

Results flagged for a closer look

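Of 216 groups of 4 values, 5 had 1 value far from the other 3 by Dixon's criterion, and chance gives about 5% of groups. Ndufb4, an accessory subunit of complex I, was -0.049 on array W3.2, against 0.22 to 0.26 on the other arrays of W3. Uqcrfs1 was 0.18 on array W4.4, against -0.22 to -0.16 on the others of W4. Uqcr10, a small subunit of complex III, was 0.22 on array W4.1, against -0.070 to -0.060. Over the mice, Ndufaf2 stood apart in W4 at 0.86, against -0.17 to -0.11 in the others. Ndufa4l2 stood apart in W2 at -0.39, against 0.06 to 0.14. Both genes were named for their pair calls and large ranges in these same values, so the chance share does not hold for them.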

How the results depend on the processing

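Of the 5-kidney calls, 1 of 2 remained, that of Cox7a1, with no dye term, with a filter of 2 of 4 arrays, without mouse W3, without W4, and without arrays W4.3 and W4.4 together, the last chosen after seeing the data. The count was 0 with the sign not turned and 0 without mouse W2, and leaving out 1 array gave 0 to 2. It was 3 with values on all 16 arrays, where Ndufaf8 was called too. Among the settings the 5-kidney test called Ndufaf8 in 2 of 33 and Ndufaf2 in 1 of 32. The labels do not say that replicate numbers pair the arrays across mice. Same-numbered arrays of different mice had correlations of 0.0863 to 0.335 (median 0.164), and same-orientation arrays of other numbers -0.0145 to 0.324 (median 0.112). Of 16 arrays, 12 correlated best with one of their own number, a hint from the data and not the design. With the replicate block the 5-kidney test called 1 gene, Cox7a1, and 590 probes against 629. In the W5 test, where the block was fitted over 16 arrays and not over 4 mouse means, probes called rose from 45 to 643, with 1 gene of the set, Cox8b, in both. The test among W1 to W4 called 1, Cox7a1, with array weights, with values on all 16 arrays, with the mean of a gene's probes and with 1 probe per named gene, and 0 to 1 without 1 array. Genes called in any pair numbered 0 with the sign not turned, 1 without mouse W1, 1 without W2 and 1 without W4.3 and W4.4, and 1 to 4 without 1 array. The W5 test called 0 with the filter of 2 of 4 arrays, without mouse W2, W3 or W4, without W4.3 and W4.4, and with the spread of W5 added, and 0 to 1 without 1 array. With the sign not turned, the Cox8b mean changed side, at an adjusted p of 0.269, against 0.00627 to 0.122 without 1 array. The count within 1.5-fold ran from 45 to 62 without 1 array. Dye calls numbered 1 with the sign not turned, 14 with array weights, and 0, 1, 2 and 2 without mouse W1, W2, W3 and W4, and 1 to 11 without 1 array. Over all settings the 5-kidney test called 23 to 846 probes, the W1 to W4 test 0 to 240 and the W5 test 3 to 643. The 23 and the 0 came with the sign not turned. There a mouse difference largely cancels between arrays of opposite orientation by construction, so that setting is no check of the calls. Without 1 array the 5-kidney test called 453 to 663 probes and the W1 to W4 test 73 to 121.

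With the sign not turned, the median of complex I was 0.0771 in W2 and -0.0322 in W3, of II -0.0956 in W3, and in W2 of III 0.0920, of IV 0.0257 and of V 0.0839. Since mouse differences largely cancel in that setting, these values do not check the medians of the mice. Leaving out 1 array moved the W1 to W4 medians of complex I to -0.0126 to 0.0241, -0.0993 to -0.0784, 0.0202 to 0.0892 and -0.0089 to 0.0843. For complex IV they ran from -0.0273 to 0.0417, -0.0954 to -0.0349, 0.0041 to 0.0813 and -0.0011 to 0.0989. The causes were not tested. Of 204 median settings, 196 moved by less than the spread between arrays. Many of these settings left out 1 of the 4 arrays of a mouse. That alone moves a median little against that spread, so the count does not show that the medians are stable. Signal over background cannot be read from ratios.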
